A study of Populus x canadensis with 4 samples.

Results

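The microRNA families miR390 and miR393 were followed in poplar leaves over 4 doses of para-hydroxybenzoic acid, a plant phenolic known as an allelochemical. Their members were chosen by name: every sequence whose name carries exactly miR390 or miR393 (or MIR390 or MIR393), whatever the species prefix, arm or suffix. This gave 13 distinct sequences, 5 of miR390 and 8 of miR393, from 21 rows, out of 529 distinct sequences in 738 rows. The plants were rooted cuttings of Populus × euramericana 'Neva', grown 90 days in water culture and given 0, 2, 4 or 8 mM of the acid for 3 days. RNA of equally treated plants had been mixed in equal parts, which left 1 library per dose, with 2640653, 4998878, 6369127 and 5310499 reads assigned to the table at 0, 2, 4 and 8 mM. No difference below therefore has a replicate check, no p-value was computed, and variation among plants could not be estimated. The intervals are exact 95% intervals and cover counting error only; without molecular identifiers, PCR copies of 1 molecule count as several reads. Levels are the authors' normalized read counts, which are the raw reads times 1 factor per library and are not divided by length. The table holds small RNA sequences alone, so the leaf label was not checked against marker genes.

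miR390 is known for its partner AGO7, an Argonaute protein that binds it almost exclusively. Together they cut the non-coding TAS3 transcript, which is then turned into small interfering RNAs that repress a group of auxin response factor genes and so shape leaf polarity and lateral roots. miR393 acts at the other end of the pathway: it targets transcripts of the F-box auxin receptors, TIR1 and its AFB relatives, and so sets how well a cell perceives auxin. In Arabidopsis the 3p strand of miR393 is also known to work by itself, in the Argonaute AGO2, on a Golgi membrane fusion gene during defence. Transcripts of TAS3, the receptors and the response factors were not analysed here.

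The miR390 sequences show which strand of the hairpin each read count stands for. They are printed 5′ to 3′ as DNA letters, with bases 2 to 8, the seed, in capitals. The mature strand comes first, then the 3p strands, then a sequence that starts before the mature one when the 2 are laid together without gaps.
ptc-miR390a: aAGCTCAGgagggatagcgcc
ptc-MIR390b-p3: cGCTATCCatcctgagtttca
ptc-miR390d-3p: cGCTATCCatcctgagtttta
ptc-MIR390a-p3 and ptc-MIR390c-p3, 1 shared sequence: cGCTATCTatcctgagttct
hex-MIR390b-p5_2ss8AG21GT: tAAGAAGGataagctcaggat
Laid against ptc-miR390a without gaps, ptc-MIR390b-p3 paired at 17 of 19 positions, with 1 more G-U pair and 1 unpaired position. Each strand then stood out by 2 bases at its 3′ end, the layout of a Dicer-cut duplex. The strand shared by ptc-MIR390a-p3 and ptc-MIR390c-p3 paired at 15 of 19 positions, with 2 G-U pairs and 2 unpaired positions. ptc-MIR390b-p3 and ptc-miR390d-3p share their seed and 20 of 21 bases. In the same kind of alignment, the sequence with the sunflower prefix hex begins 10 bases before the start of ptc-miR390a. In their overlap, 10 of the 11 bases are equal. The hex sequence lacks the miR390 seed at its own positions 2 to 8, and its place in a poplar hairpin was not tested.

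miR390 was a scarce family in these leaves, with its highest level at 2 mM and its lowest at 8 mM. Its total came to 336.3, 552.1, 274.8 and 239.8 normalized read counts at 0, 2, 4 and 8 mM, from 248, 560, 330 and 269 reads. By mean level it ranked 53 among 121 families. The total was 1.64-fold higher at 2 mM than at 0 mM (1.41 to 1.91). It was 1.22-fold lower at 4 mM than at 0 mM (1.03 to 1.45) and 1.40-fold lower at 8 mM (1.18 to 1.67). Setting the libraries to equal table totals shifts every log2 ratio to 0 mM by -0.46, -0.57 and -0.40 at 2, 4 and 8 mM. On that scaling the total was 1.19-fold higher at 2 mM, with an interval of 1.03 to 1.39. It was 1.81-fold lower at 4 mM (1.53 to 2.14) and 1.85-fold lower at 8 mM (1.55 to 2.21). The directions held under both scalings. With 1 row used per sequence, in place of the sum of its rows, the intervals at 4 mM (0.929, 0.695 to 1.25) and 8 mM (0.871, 0.645 to 1.18) included 1.

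Between neighbouring doses, 2 and 4 mM differed most in miR390. The total was 2.01-fold lower at 4 mM than at 2 mM (1.75 to 2.31), and 2.16-fold lower with equal table totals (1.88 to 2.48). Between 8 and 4 mM the ratio was 0.872 (0.740 to 1.03), so these neighbours were not separated by counting error. As shares of all reads in the table, miR390 made up 0.00939%, 0.0112%, 0.00518% and 0.00507% at 0, 2, 4 and 8 mM.

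The mature strand, ptc-miR390a, carried most of these reads. It had 276.7, 404.2, 229.04 and 180.05 normalized read counts at 0, 2, 4 and 8 mM, from 204, 410, 275 and 202 reads. The 2 mM library was the highest and the 8 mM library the lowest. The sequence was 1.46-fold higher at 2 mM than at 0 mM (1.23 to 1.74), which left 1.06-fold (0.895 to 1.26) with equal table totals. At 8 mM it was 1.54-fold lower than at 0 mM (1.26 to 1.88), or 2.03-fold lower with equal table totals. At 4 mM it was 1.21-fold lower (1.003 to 1.45), or 1.79-fold with equal table totals.

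The 3p strands did not share one course. ptc-MIR390b-p3 had 19.0, 89.7, 15.8 and 21.4 normalized read counts at 0, 2, 4 and 8 mM, from 14, 91, 19 and 24 reads. Its 2 mM library stood far above the other 3, whose counting intervals overlap. The fold at 2 mM against 0 mM was 4.72 (2.68 to 8.98), and the level at 4 mM was 5.67-fold lower than at 2 mM (3.43 to 9.85). With equal table totals the fold at 2 mM against 0 mM was 3.43 (1.95 to 6.53).

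The strand shared by ptc-MIR390a-p3 and ptc-MIR390c-p3 had 40.7, 36.5, 4.997 and 19.6 normalized read counts at 0, 2, 4 and 8 mM, from 30, 37, 6 and 22 reads. Here the 4 mM library was the lowest, 8.14-fold below 0 mM (3.34 to 23.9), and the 0 and 2 mM libraries did not differ beyond counting error. At 8 mM the strand was 2.07-fold lower than at 0 mM (1.16 to 3.78). Equal table totals put it 12.1-fold lower at 4 mM and 2.74-fold lower at 8 mM. ptc-miR390d-3p had 8 reads at 2 mM and was listed at 0 at the other doses. At 2 mM it was at least 1.94-fold higher than a floor of 3 reads at 0 mM, but the exact interval starts lower, at 1.24-fold. The log2 shift of -0.46 with equal table totals would take the start of that interval below 1.

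The sequence hex-MIR390b-p5_2ss8AG21GT did not follow the order of the mature strand. Untreated leaves were listed at 0 for it, whereas 14, 30 and 21 reads were found at 2, 4 and 8 mM. These came to normalized read counts of 13.8, 25.0 and 18.7. All 3 treated libraries were above the untreated one, where 3 reads, the floor used for a listed 0, would come to 4.07 normalized read counts. Against that floor it was at least 3.39-fold, 6.14-fold and 4.60-fold higher at 2, 4 and 8 mM. The exact intervals start lower, at 2.41-fold, 4.69-fold and 3.42-fold. Equal table totals would shift these bounds too, by -0.46, -0.57 and -0.40 in log2, and leave them above 1. Whether the authors removed very low counts is not known; if they did, these bounds start too high.

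**Figure D1:**
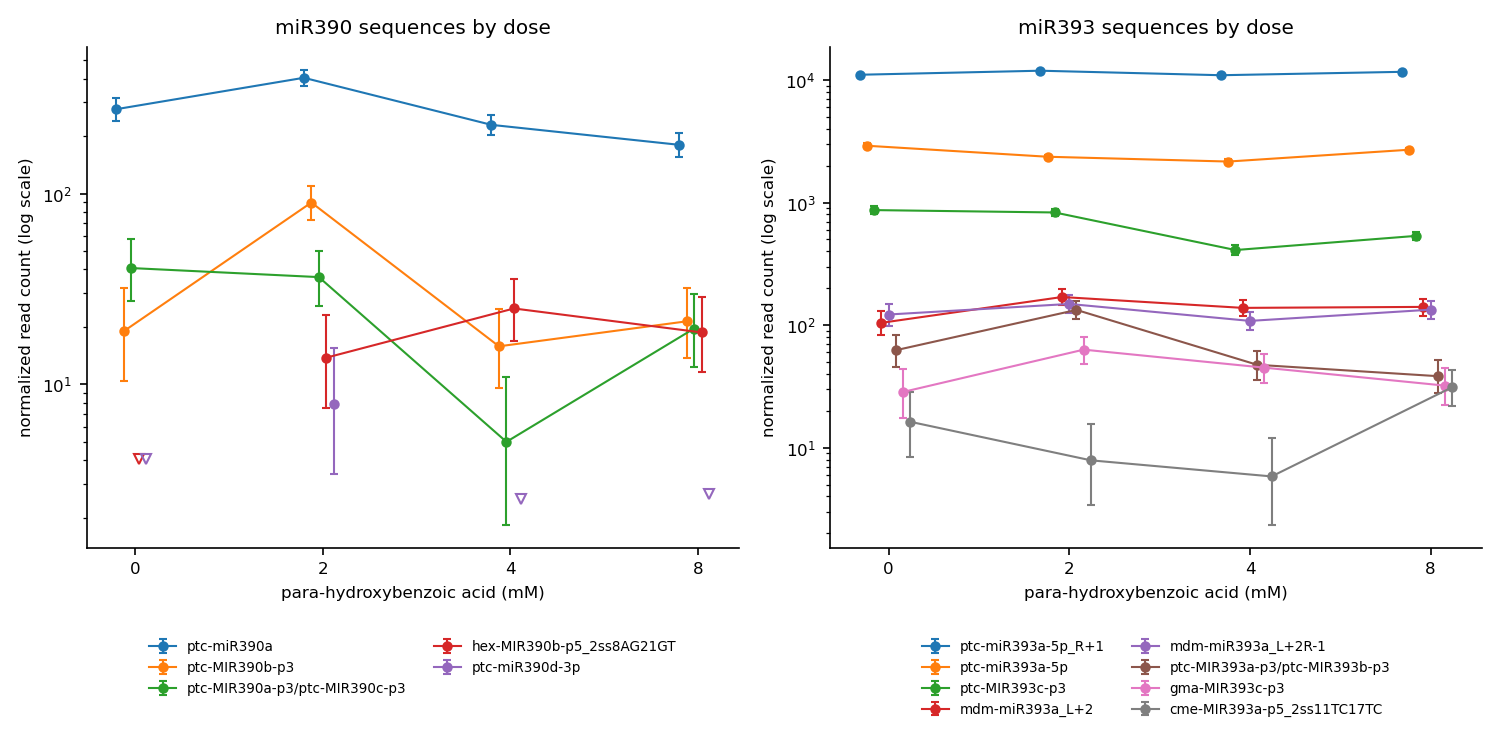
Normalized read count (log scale) of each miR390 sequence (left) and each miR393 sequence (right) at 0, 2, 4 and 8 mM para-hydroxybenzoic acid, 1 library per dose, with exact 95% Poisson bars. Open triangles mark libraries listed at 0, drawn at the floor of 3 reads; ptc-MIR390b-p3 stands at 89.7 at 2 mM and between 15.8 and 21.4 at the other doses, while ptc-miR393a-5p_R+1 stays between 10934 and 11902.

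Ratios within a library do not depend on how libraries are scaled, and the balance of the miR390 arms differed between doses. Shares carry Wilson 95% intervals. Among the pooled reads of ptc-miR390a and the 3p strands, the 3p strands held 17.7% (13.5 to 23.0), 24.9% (21.5 to 28.7), 8.33% (5.71 to 12.01) and 18.5% (14.2 to 23.9) at 0, 2, 4 and 8 mM. The 4 mM share lay below the intervals of all other doses. ptc-MIR390b-p3 alone, set against ptc-miR390a, held 6.42% (3.86 to 10.5), 18.2% (15.03 to 21.8), 6.46% (4.18 to 9.87) and 10.6% (7.24 to 15.3) at 0, 2, 4 and 8 mM. Its 2 mM share lay above the intervals at 0 and 4 mM and overlapped slightly with that at 8 mM. The strand of ptc-MIR390a-p3 and ptc-MIR390c-p3 held 12.8% (9.13 to 17.7), 8.28% (6.07 to 11.2), 2.14% (0.982 to 4.58) and 9.82% (6.58 to 14.4) against ptc-miR390a. Within the 3p arm, ptc-MIR390b-p3 made up 31.8% of the reads at 0 mM (20.0 to 46.6) and 66.9% at 2 mM (58.6 to 74.3). It made up 76.0% of only 25 reads at 4 mM (56.6 to 88.5) and 52.2% at 8 mM (38.1 to 65.9).

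For miR393 the sequences separate forms of one mature strand from 3p strands of several hairpins. The first 4 lines hold the same 21-base core with different ends, the next 3 are 3p strands, and capitals again mark bases 2 to 8.
ptc-miR393a-5p: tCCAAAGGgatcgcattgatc
ptc-miR393a-5p_R+1: tCCAAAGGgatcgcattgatct
mdm-miR393a_L+2: cCTCCAAAgggatcgcattgatct
mdm-miR393a_L+2R-1: cTTCCAAAgggatcgcattgatc
ptc-MIR393c-p3: aTCATGCGatcccttaggaat
ptc-MIR393a-p3 and ptc-MIR393b-p3, 1 shared sequence: cTATCCCTttggattcctcc
gma-MIR393c-p3: tATCCCTTtggattcctcctt
The 21 and 22 nt forms share the seed CCAAAGG and differ by 1 base at the 3′ end. Both forms under an apple name (mdm) carry 2 more bases at the 5′ end, so their bases 2 to 8 differ from that seed. ptc-MIR393c-p3 paired with the 21 nt form at 15 of 19 positions without gaps, with 1 G-U pair, 3 unpaired positions and 2 bases standing out at each 3′ end. The sequence shared by ptc-MIR393a-p3 and ptc-MIR393b-p3 sits elsewhere: it reached 7 bases past the start of the 21 nt form and paired at 12 of the 13 positions in the overlap. gma-MIR393c-p3, under a soybean name, is that sequence moved by 1 base, with 19 of 19 overlapping bases equal. The eighth sequence, cme-MIR393a-p5_2ss11TC17TC of 18 nt, does not hold the core and is described apart.

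miR393 was an abundant family, and with the deposited factors its total hardly differed between doses. It came to 15141, 15619, 13849 and 15261 normalized read counts at 0, 2, 4 and 8 mM, from 11164, 15843, 16628 and 17122 reads, and ranked 21 among 121 families. With those factors the highest level was 1.13 times the lowest, against 2.30 times for miR390. Under equal table totals the highest and lowest levels were 1.62-fold apart for miR393 and 2.21-fold apart for miR390. At 2 mM the total was 1.03-fold higher than at 0 mM (1.007 to 1.06), but 1.33-fold lower with equal table totals (1.30 to 1.37). At 4 mM it was 1.09-fold lower than at 0 mM (1.07 to 1.12), or 1.62-fold lower with equal table totals. At 8 mM the ratio was 1.01 (0.984 to 1.03) with the deposited factors, and the total was 1.31-fold lower with equal table totals (1.28 to 1.34). The miR393 share of all reads in the table was 0.423%, 0.317%, 0.261% and 0.322% at 0, 2, 4 and 8 mM. With both scalings 4 mM was the lowest dose.

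The 22 nt form dominated miR393 at every dose. ptc-miR393a-5p_R+1 had 11032, 11902, 10934 and 11653 normalized read counts at 0, 2, 4 and 8 mM. It was 1.08-fold higher at 2 mM than at 0 mM (1.05 to 1.11) and 1.06-fold higher at 8 mM (1.03 to 1.09), but 1.28-fold and 1.25-fold lower with equal table totals. The 21 nt form ptc-miR393a-5p had 2908, 2364, 2160 and 2697. It was 1.23-fold lower at 2 mM than at 0 mM (1.16 to 1.30). It was 1.35-fold lower at 4 mM (1.27 to 1.43) and 1.08-fold lower at 8 mM (1.02 to 1.14). Equal table totals put the 21 nt form 1.69-fold, 1.99-fold and 1.42-fold lower at 2, 4 and 8 mM. MicroRNAs of 22 nt are known for their ability to start secondary small RNAs from a cut target, which makes the length of interest.

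Of the 21 and 22 nt forms together, the 22 nt form held 79.1% (78.3 to 79.9), 83.4% (82.8 to 84.0), 83.5% (82.9 to 84.1) and 81.2% (80.6 to 81.8) at 0, 2, 4 and 8 mM. All 3 treated libraries were above the untreated one. At 2 mM both forms were deposited as fractions of reads, 2398.3 and 12072.7, that add up to 14471, and at 8 mM their sum was 16100 in the same way. At 0 and 4 mM both forms were whole numbers. Whether the authors shared out reads between the forms, and what part that had in these percentages, was not tested.

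Forms with 2 more bases at the 5′ end stayed rare. mdm-miR393a_L+2 had 104.4, 169.6, 138.3 and 140.8 normalized read counts at 0, 2, 4 and 8 mM, with the untreated library lowest. It was 1.62-fold higher at 2 mM than at 0 mM (1.23 to 2.15). The folds were 1.32 at 4 mM (1.004 to 1.76) and 1.35 at 8 mM (1.02 to 1.795). Under equal table totals all 3 intervals included 1, with ratios of 1.18 (0.897 to 1.56) at 2 mM, 0.894 (0.678 to 1.19) at 4 mM, the other direction, and 1.02 (0.772 to 1.36) at 8 mM. mdm-miR393a_L+2R-1 had 122.1, 148.9, 108.3 and 133.7, and with the deposited factors its ratios to 0 mM all had intervals that include 1. With equal table totals it was 1.67-fold lower at 4 mM, a ratio of 0.599 (0.454 to 0.792). Among all reads that hold the core, the 2 forms made up 1.599% (1.38 to 1.86), 2.18% (1.96 to 2.43), 1.85% (1.65 to 2.07) and 1.88% (1.68 to 2.10).

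The 3p arm of miR393 had lower ratios to 0 mM at 4 and 8 mM than the mature strand had. Its total was 1.91-fold lower at 4 mM than at 0 mM (1.71 to 2.13) and 1.58-fold lower at 8 mM (1.42 to 1.76), where the ratios of all forms with the 5p core were 0.942 (0.919 to 0.965) and 1.03 (1.007 to 1.06). ptc-MIR393c-p3, the canonical duplex partner, had 868.0, 830.1, 409.8 and 534.8 normalized read counts at 0, 2, 4 and 8 mM, from 640, 842, 492 and 600 reads. With the deposited factors the 0 and 2 mM libraries were high and not separated by counting error, and the 4 and 8 mM libraries were low. Equal table totals put the strand 1.44-fold lower at 2 mM than at 0 mM, a ratio of 0.695 (0.626 to 0.771). It was 2.12-fold lower at 4 mM than at 0 mM (1.88 to 2.39) and 1.62-fold lower at 8 mM (1.45 to 1.82), or 3.14-fold and 2.15-fold lower with equal table totals. Against 2 mM, the level at 4 mM was 2.03-fold lower (1.81 to 2.27).

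Both shifted 3p sequences were highest at 2 mM. The one shared by ptc-MIR393a-p3 and ptc-MIR393b-p3 had 62.4, 133.1, 47.5 and 38.3 normalized read counts at 0, 2, 4 and 8 mM, from 46, 135, 57 and 43 reads. It was 2.13-fold higher at 2 mM than at 0 mM (1.52 to 3.05) and 1.63-fold lower at 8 mM (1.05 to 2.53). With equal table totals it was 1.55-fold higher at 2 mM (1.10 to 2.22), and the ratio at 4 mM, 0.761 (0.507 to 1.15) with the deposited factors, was 0.514 (0.342 to 0.775). gma-MIR393c-p3 had 28.5, 63.1, 45.0 and 32.1, and was 2.22-fold higher at 2 mM than at 0 mM (1.34 to 3.82), but with equal table totals the interval included 1, at 1.61-fold (0.970 to 2.78). Its ratios at 4 and 8 mM, 1.58 (0.938 to 2.75) and 1.13 (0.640 to 2.03), included 1. These sequences overlap almost fully, so they are not separate evidence.

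Within libraries, the 3p strands held 6.34% of the miR393 reads of both arms without treatment (5.90 to 6.81), and 6.57% (6.20 to 6.97), 3.63% (3.35 to 3.92) and 3.97% (3.69 to 4.28) at 2, 4 and 8 mM. The 0 and 2 mM shares overlapped, as did the 4 and 8 mM shares, and the first pair lay above the second. The shifted sequences made up 9.48% of the 3p reads without treatment (7.53 to 11.9), and 19.1% (16.8 to 21.6), 18.4% (15.5 to 21.7) and 11.6% (9.44 to 14.3) at 2, 4 and 8 mM. In both families the share of the 3p arm was lowest at 4 mM, although for miR393 the interval at 8 mM overlapped with it.

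**Figure D2:**
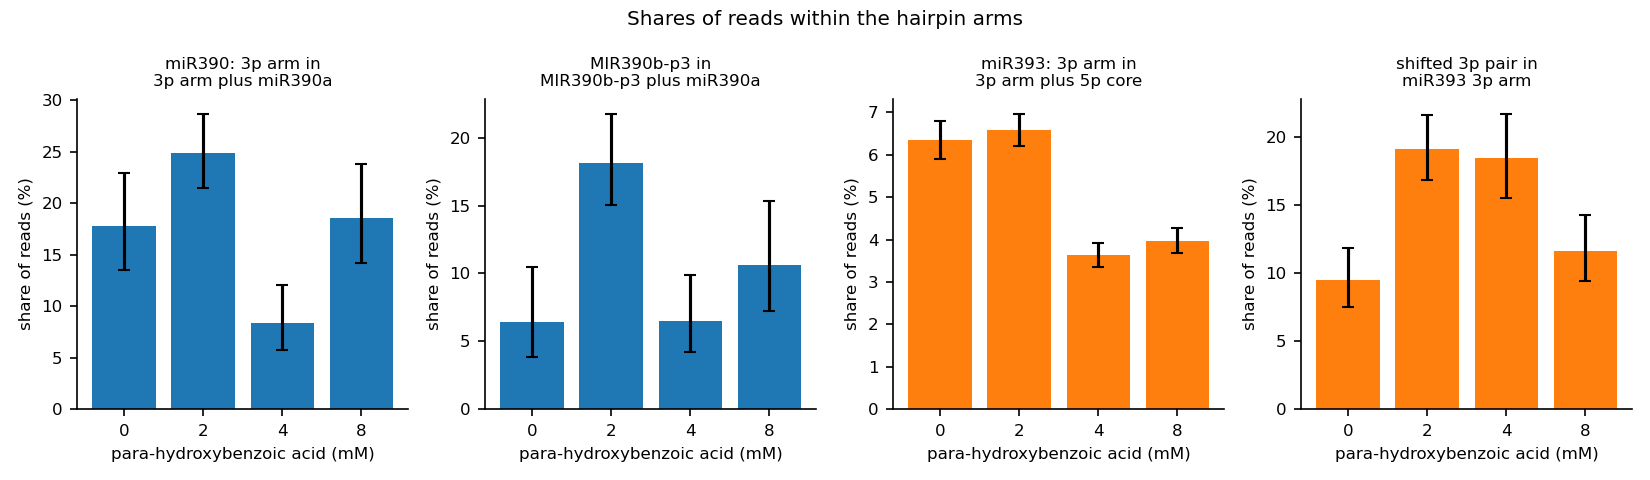
Shares of reads within each library (%) at 0, 2, 4 and 8 mM, with Wilson 95% bars: the miR390 3p arm, ptc-MIR390b-p3 against ptc-miR390a, the miR393 3p arm, and the shifted sequences within the miR393 3p arm. The miR393 3p share is 6.34% and 6.57% at 0 and 2 mM and 3.63% and 3.97% at 4 and 8 mM, and the ptc-MIR390b-p3 share peaks at 18.2% at 2 mM.

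**Figure D3:**
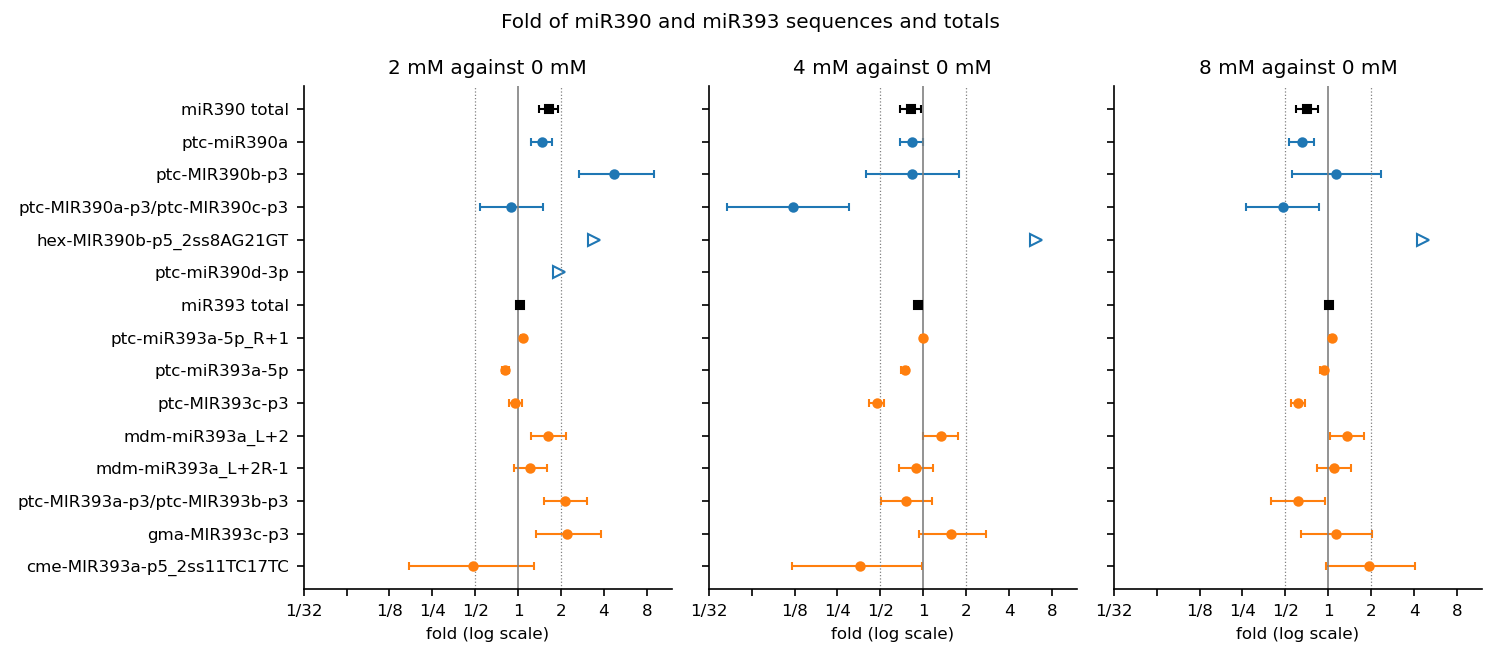
Fold of each miR390 sequence (blue), each miR393 sequence (orange) and both family totals (black squares) at 2, 4 and 8 mM against 0 mM, on a log scale, with exact 95% counting intervals. Dotted lines mark 2-fold; open triangles are lower bounds against a listed 0. All folds use the deposited factors. Among those with an interval, the highest is 4.72 for ptc-MIR390b-p3 at 2 mM. The lowest is 8.14-fold lower, for the strand of ptc-MIR390a-p3 and ptc-MIR390c-p3 at 4 mM.

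Most of the members counted here lay within 2-fold of 0 mM at each dose, as did most of all sequences. Of all 350 sequences, 156, 156 and 127 were at least 2-fold higher or lower at 2, 4 and 8 mM. Of the 13 members, 12 averaged at least 10 normalized read counts over the 4 libraries and were counted on log2(value + 1), which understates the differences of scarce sequences. The exception was ptc-miR390d-3p. hex-MIR390b-p5_2ss8AG21GT passed only through its treated libraries, so a higher value there was built into the filter. At 2 mM, 4 of 12 were at least 2-fold higher than at 0 mM (20.9% of all 350 sequences were), 0 were at least 2-fold lower (23.7% of all) and 8 lay between. These were ptc-MIR390b-p3, hex-MIR390b-p5_2ss8AG21GT and both shifted miR393 3p sequences. At 4 mM, 1 was higher, hex-MIR390b-p5_2ss8AG21GT (18.9% of all), 3 were lower (25.7% of all) and 8 lay between. The lower ones were ptc-MIR393c-p3, the strand of ptc-MIR390a-p3 and ptc-MIR390c-p3, and cme-MIR393a-p5_2ss11TC17TC. The last was below 10 at 2 and 4 mM and passed through its 0 and 8 mM libraries. Its lower value at 4 mM was thus partly built into the filter. At 8 mM, the same sequence was higher (14.9% of all), the strand of ptc-MIR390a-p3 and ptc-MIR390c-p3 was lower (21.4% of all) and 10 lay between.

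The median log2 ratio of the 12 members was 0.41, -0.26 and 0.10 at 2, 4 and 8 mM, beside 0.04, 0.03 and -0.02 over all 350 sequences. With equal table totals the medians were -0.04, -0.81 and -0.30 for the members and -0.46, -0.55 and -0.45 for all. The split of higher to lower members was then 2 to 1, 1 to 3 and 1 to 4 at 2, 4 and 8 mM, and that of all sequences 42 to 114, 36 to 127 and 33 to 110, where the deposited factors gave 73 to 83, 66 to 90 and 52 to 75. In the authors' deposited table, a line sets off sequences without a difference at p of at most 0.05. mdm-miR393a_L+2 and gma-MIR393c-p3 stand below it and the other members above it. The share of all sequences above the line was not counted, so this position does not set the members apart. The test behind that line is not named in the file.

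**Figure D4:**
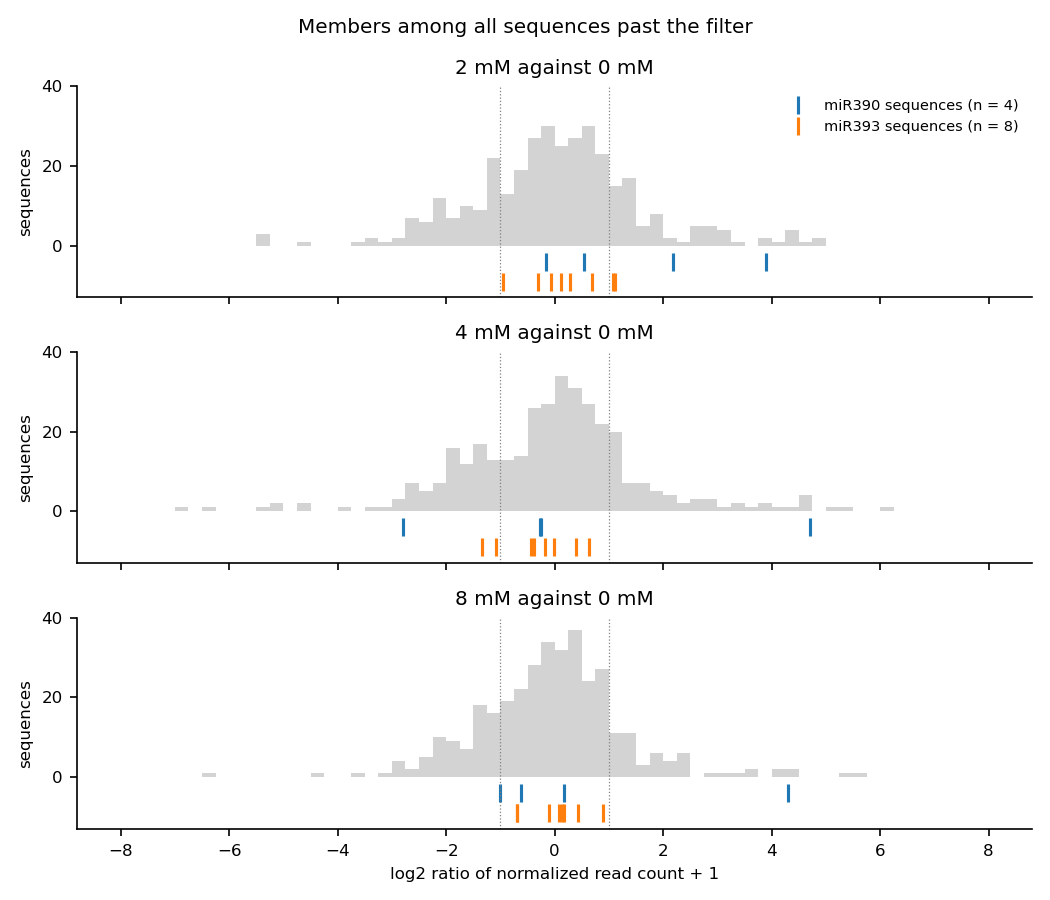
Number of sequences (grey, 350 that averaged at least 10 normalized read counts) by log2 ratio of normalized read count + 1 at 2, 4 and 8 mM against 0 mM, with the 4 miR390 sequences (blue ticks) and 8 miR393 sequences (orange ticks) that passed the filter. Dotted lines mark 2-fold; most ticks lie between them, as did 8, 8 and 10 of the 12 members at 2, 4 and 8 mM.

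Among other microRNA families of auxin signalling, the miR167 total was above 0 mM at 2, 4 and 8 mM under both scalings. The totals of miR160 and miR164 were below 0 mM at 4 and 8 mM under both. The list held miR160 and miR167, which target auxin response factors, miR164, which targets NAC genes including one of auxin-driven root branching in Arabidopsis, and miR847, for which no sequence was analysed here. Of their 39 sequences, 27 passed the filter. At 2 mM 4 of these were at least 2-fold higher, 6 lower and 17 between. At 4 mM these counts were 7, 4 and 16, and at 8 mM 3, 6 and 18. Among all 350 sequences, 20.9%, 18.9% and 14.9% were higher at 2, 4 and 8 mM, and 23.7%, 25.7% and 21.4% were lower. With equal table totals 28 passed, with 2 higher and 10 lower at 2 mM, 3 and 13 at 4 mM, and 2 and 9 at 8 mM. Of all 350 sequences, 42 were then higher and 114 lower at 2 mM, 36 and 127 at 4 mM, and 33 and 110 at 8 mM.

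By family total, miR167 had 32425, 54206, 66787 and 56644 normalized read counts at 0, 2, 4 and 8 mM, with the untreated library lowest, and its most abundant sequence, ptc-miR167f-5p_R+1, had 13903, 34284, 34066 and 26323. miR160 had 5921, 4857, 4018 and 3830, lower at each next dose, and ptc-miR160a had 4006, 3923, 2947 and 2721. With equal table totals, however, miR160 was 1.07-fold higher at 8 mM than at 4 mM (1.03 to 1.11). miR164 had 36045, 40377, 23591 and 21917, and ptc-miR164a 31922, 38087, 22237 and 20752. The miR390 total, like miR164, was above 0 mM at 2 mM and below it at 4 and 8 mM, though with equal table totals miR164 was 1.23-fold lower at 2 mM (1.21 to 1.25). With the deposited factors, miR393 showed neither the higher level of miR167 nor the steady decline of miR160. Under equal table totals, miR160 had ratios to 0 mM of 0.596, 0.458 and 0.489 at 2, 4 and 8 mM. Those of miR393 were 0.750, 0.618 and 0.763, so both families were then lowest at 4 mM.

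Likeness of profile was measured as the root mean square difference of log2(total + 1), centred over the 4 doses, among families with a mean total of at least 100. Over 59 other families the median distance was 0.60 for miR390 and 0.38 for miR393. Nearest to miR390 were miR164 (0.20), miR477 (0.26) and miR6173 (0.27). miR477 had 1743, 2379, 1706 and 1658 normalized read counts at 0, 2, 4 and 8 mM, and miR6173 had 398.7, 467.3, 309.0 and 342.3. Nearest to miR393 were miR858 (0.08), miR6462 (0.08) and miR6459 (0.11). miR858 had 1665, 1676, 1332 and 1666, miR6462 had 1370, 1614, 1371 and 1388, and miR6459 had 766.3, 641.8, 589.7 and 689.0. miR390 and miR393 lay 0.42 apart. The 4 doses share their libraries across all families, so these distances only describe the table.

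**Figure D5:**
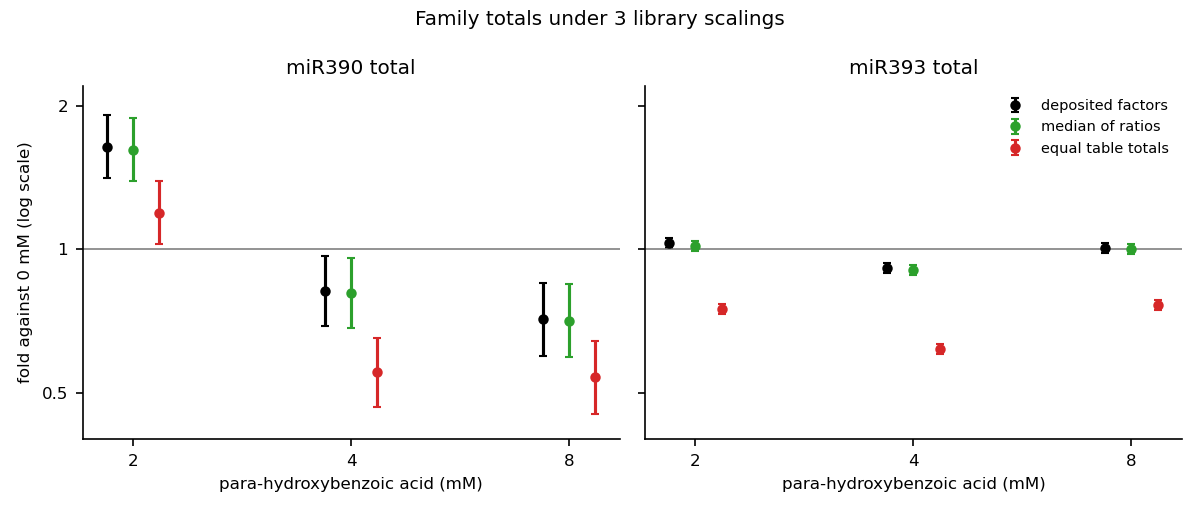
Fold of the miR390 total (left) and miR393 total (right) at 2, 4 and 8 mM against 0 mM, on a log scale, with the deposited factors, with median-of-ratios factors and with equal table totals; bars are exact 95% counting intervals. miR390 is above 1 at 2 mM and below 1 at 4 and 8 mM under all 3 scalings, while miR393 at 2 mM is 1.03 with the deposited factors and 0.750 with equal table totals.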

How the data were processed

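Small RNA libraries of pooled leaf RNA, 1 per dose, were sequenced; the submitters' processing notes name bcl2fastq 1.8.4. For mapper, counter, build and annotation, the sources used here give no name. The raw columns are estimated counts as deposited, many of them fractions. The normalized columns hold a linear signal that the authors deposited, equal to the raw value times 1.356, 0.986, 0.833 and 0.891 at 0, 2, 4 and 8 mM.

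Rows that share a sequence were summed, and counts rounded for intervals. Ratios carry exact 95% conditional binomial intervals, levels exact Poisson and shares Wilson intervals. A listed 0 was replaced by 3 counts for a bound. The 2-fold counts used log2(value + 1) and a mean of at least 10. All members past that filter are named, with the 3 families most alike and the totals and top sequences of miR160, miR167, miR164 and miR847. Alternatives were equal table totals, median-of-ratios factors, single rows, other members, filters and a pseudocount of 5. The procedure was tested on simulated data. Python 3.11.15, numpy 2.4.6, pandas 2.3.3, scipy 1.17.1 and matplotlib 3.10.9 were used. Members, lists and alternatives were chosen with earlier results of these data known.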

Additional observations from a re-analysis of the deposited data

How the results depend on the processing

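Median-of-ratios factors and a pseudocount of 5 left the family ratios and the counts of sequences past 2-fold within their limits wherever they applied. With median-of-ratios factors, however, the miR393 ratio at 2 mM was 1.02 (0.991 to 1.04), an interval that includes 1. The same held for mdm-miR393a_L+2 at 4 mM, at 1.31 (0.996 to 1.74). Equal table totals moved the miR390 ratios to 0 mM to 1.19, 0.552 and 0.539 at 2, 4 and 8 mM and the miR393 ratios to 0.750, 0.618 and 0.763, which turned the direction of miR393 at 2 mM. They also turned ptc-miR393a-5p_R+1 at 2 and 8 mM (0.784 and 0.799) and mdm-miR393a_L+2 at 4 mM (0.894). The scaling itself lowers these ratios. Using 1 row per sequence gave miR390 ratios of 2.13 at 2 mM, 0.929 at 4 mM and 0.871 at 8 mM, since ptc-miR390a fills 4 rows and weighs less; the intervals at 4 mM (0.695 to 1.25) and 8 mM (0.645 to 1.18) then include 1, which ends both lower calls. The most abundant sequence alone gave miR393 ratios of 1.08, 0.991 and 1.06 at 2, 4 and 8 mM. Sequences holding the core, an alternative added after the data were seen, gave 0.942 at 4 mM and 1.03 at 8 mM. Populus trichocarpa names alone moved no family ratio out of its interval, but the miR393 interval at 2 mM, 0.999 to 1.05, then included 1. For miR390 they leave out hex-MIR390b-p5_2ss8AG21GT and gave ratios of 1.60, 0.743 and 0.657 at 2, 4 and 8 mM. Without the filter, 265, 269 and 237 of 529 sequences were past 2-fold at 2, 4 and 8 mM, against 156, 156 and 127 of 350. With a mean of at least 50 they were 89, 86 and 65 of 226; the number counted changes with the filter. No paired analysis was possible because each dose has 1 library. The 3p strands of miR390 rest on 25 to 136 reads per library, which limits what their ratios can show.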

Other observations

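The sequence named cme-MIR393a-p5_2ss11TC17TC does not resemble the miR393 strands it is grouped with. It is 18 nt long, its best ungapped overlap with the 21 nt form had 3 of 6 bases equal, and it reads cTTTTCATttcctttcct, with bases 2 to 8 in capitals. It had 16.3, 7.89, 5.83 and 31.2 normalized read counts at 0, 2, 4 and 8 mM, from 12, 8, 7 and 35 reads. The 8 mM library was the highest, 1.92-fold above 0 mM (0.972 to 4.06) and 5.35-fold above 4 mM (2.34 to 14.3). At 4 mM it was 2.79-fold lower than at 0 mM (1.01 to 8.37). It made up at most 0.204% of the miR393 reads in any library, so the family total hardly depends on it.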
